A study of Mus musculus with 6 samples.

Results

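C3H10T1/2 is a mouse mesenchymal cell line that can be directed to fat, bone, cartilage or muscle, and the genes described here are 8 regulators and products of its skeletal fates. They are Runx1, Runx2, Dmp1, Alpl, Sox9, Spp1, Msx1 and Twist1, chosen by symbol as genes of alternative fates of the line, and all 8 were found among the 16423 genes of the deposited table. The cells, of wild-type genotype in the control group, had been differentiated for 4 days with isobutylmethylxanthine, dexamethasone, insulin, triiodothyronine, indomethacin and rosiglitazone, the last 2 days' medium keeping only triiodothyronine, insulin and rosiglitazone. They were transfected at day 4 with control siRNA (siNC, 3 libraries) or with siRNAs against Ybx1 (siYBX1, 3 libraries, labelled as a YBX1 knockdown), and RNA was taken 48 h later. Both groups thus carry the same fat-inducing drugs, no undifferentiated or bone-induced cells are in the series, and the line is a single established one. Whether the replicates came from different cultures is not in the labels. The p-values therefore speak to the variation among these 6 libraries alone, part of which may be technical.

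Bone-forming osteoblasts and cartilage-forming chondrocytes arise from the same mesenchymal precursors as adipocytes. RUNX2, a runt-domain transcription factor, is required for osteoblasts, SOX9, an HMG-box factor, is required for chondrocytes, and TWIST1, a basic helix-loop-helix factor, restrains RUNX2 in the skeleton. Bone matrix then mineralizes with the help of the phosphatase encoded by Alpl, and it holds acidic secreted phosphoproteins such as DMP1 and osteopontin (Spp1). YBX1, the protein targeted by the siRNA, has a cold-shock domain with which it contacts nucleic acids, and it is named after the Y-box, a promoter element that contains an inverted CCAAT.

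Ybx1 itself was at 135, 134 and 130 FPKM (fragments scaled to gene length and to library size) in siNC replicates 1 to 3 and at 59.3, 67.9 and 61.3 FPKM in siYBX1. The table came from libraries of 31957411 to 35410308 reads. Of 10 adipocyte markers, 9 were at 16.5 FPKM or more in every library. Fabp4, the highest, was at 1136 to 1665 FPKM in siNC and 1552 to 1953 FPKM in siYBX1. Cebpa, the other marker, was at 0.626 FPKM or less in every library and was below the level for testing. None of the 9 tested markers passed the test (median log2 fold change 0.026). Without siNC replicate 1, 3 of the 9 passed as lower in siYBX1, namely the hormone gene Adipoq (-0.25, adjusted p = 0.0130, limma) and the lipid droplet genes Cidec (-0.38, adjusted p = 0.00231) and Plin1 (-0.19, adjusted p = 0.0416). Cidec and Plin1 also passed as lower with TPM and with quantile normalization, Plin1 with voom and without siYBX1 replicate 1, and Cd36, a fatty acid transporter, passed as higher without siNC replicate 2 (0.31, adjusted p = 0.0373). One control library stood apart. Averaged over genes, the chi-square of read numbers between siNC replicate 1 and each of the other controls was 19.8 and 23.2, and that between the other controls was 4.63. Between the siYBX1 libraries it was 8.37, 10.1 and 11. All 10 adipocyte markers were lowest in siNC replicate 1 among the controls, with a summed level of 2200 FPKM against 3017 and 3068 FPKM. Of the 8 skeletal genes, 5 were highest in it. Other lists had larger shares, as 12 of 16 RUNX partners and regulators, and smaller ones, as 5 of 17 osteoblast matrix genes. The share over all genes was not computed. Results that rest on this control library are given with and without it.

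Of the 8 genes, 3 fell after Ybx1 siRNA and none rose. Dmp1, Runx2 and Sox9 were lower in siYBX1, at 0.666, 0.709 and 0.758 of their mean FPKM in siNC. Runx1, Msx1, Twist1, Alpl and Spp1 did not pass. The test was limma on log2(FPKM + 1), with Benjamini-Hochberg adjustment over the 10341 genes that averaged 1 FPKM or more and a threshold of 0.05, and all 8 genes were above that level. Over all tested genes 20.6% passed in either direction, 11.1% lower and 9.54% higher, so a change as such was common among genes of these libraries. The groups did not overlap for 4 of the 8 genes, against 40.9% of all tested genes. The median log2 fold change of the 8 genes was -0.039, against -0.011 for all tested genes. Since this is bulk RNA, fewer cells of a type and less of a transcript per cell cannot be told apart.

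**Figure D1:**
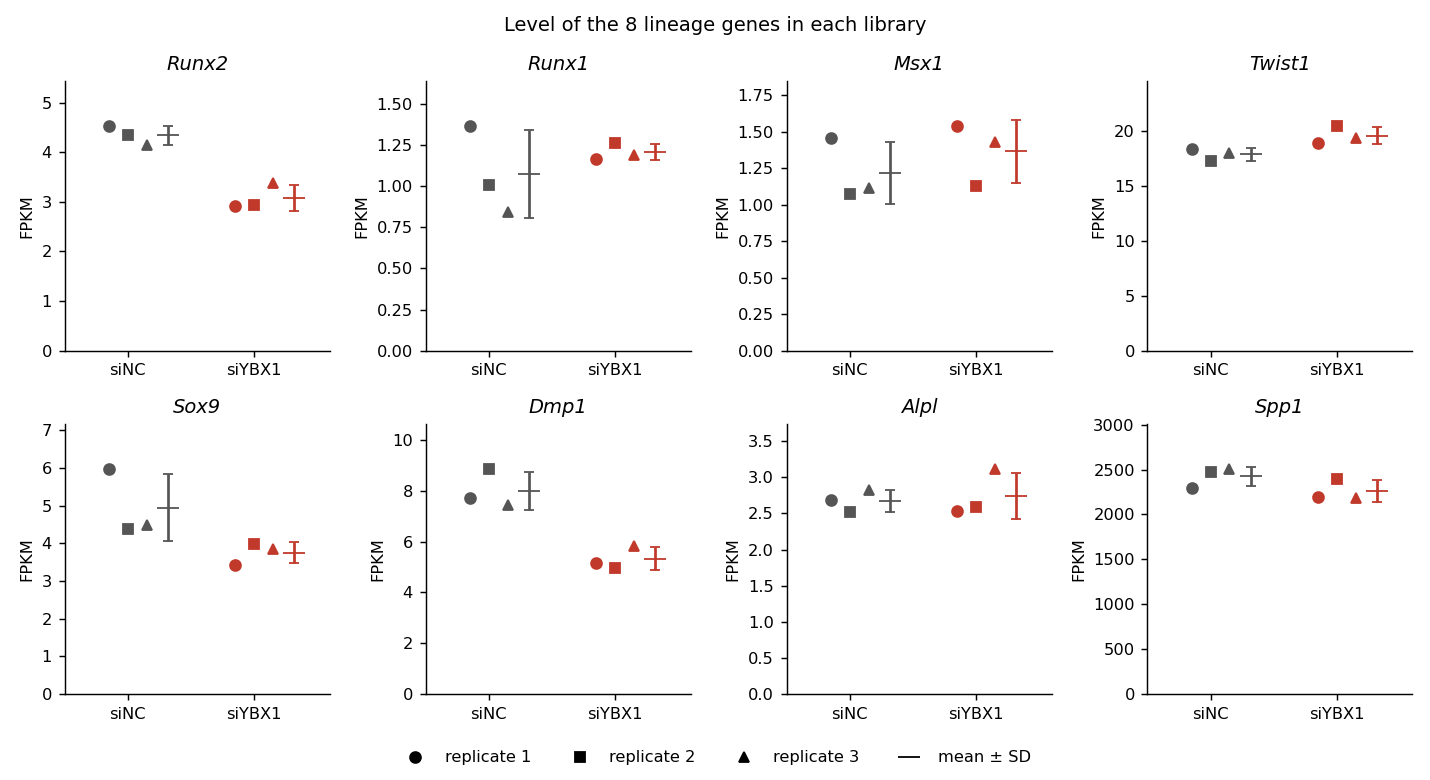
Level of each of the 8 genes in FPKM (vertical axes, each from 0) in the 3 siNC and 3 siYBX1 libraries; symbols mark replicates, and bars give the mean and SD. Runx2, Dmp1 and Sox9 are lower in every siYBX1 library than in any siNC library, Twist1 is slightly higher, and the groups overlap for Runx1, Msx1, Alpl and Spp1.

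The levels of the 8 genes spanned 3 orders of magnitude. Spp1 had a mean of 2342 FPKM over the 6 libraries and ranked 10 of 16423 genes. Twist1 came next at 18.7 FPKM, followed by Dmp1 at 6.67, Sox9 at 4.35, Runx2 at 3.71, Alpl at 2.71, Msx1 at 1.29 and Runx1 at 1.14 FPKM. FPKM is per length, so these levels can be ordered. Most neighbours in this order were separate, but Msx1 and Runx1 overlapped in both groups, Sox9 and Runx2 overlapped in siNC only, and Runx2 and Alpl overlapped in siYBX1 only. Twist1 was the most abundant of the 5 transcription factors in every library.

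Runx2 and Runx1 encode related runt-domain factors, the former the main regulator of osteoblast fate and the latter better known from blood formation and also active in skeletal precursors. Runx2 was at 4.53, 4.35 and 4.15 FPKM in siNC and at 2.92, 2.94 and 3.39 FPKM in siYBX1. All 3 knockdown libraries lay under all 3 controls. Its log2 fold change was -0.39 (SE 0.07, 95% confidence interval -0.54 to -0.24, adjusted p = 0.00414, limma), resting on 602 to 1018 reads per library. Runx1 was at 1.36, 1.01 and 0.841 FPKM in siNC and at 1.17, 1.26 and 1.19 FPKM in siYBX1. The knockdown values fell inside the range of the controls, among which replicate 1 was highest. The log2 fold change was 0.10 with an interval of -0.11 to 0.31 (adjusted p = 0.488, limma), so a fall as large as that of Runx2 lies outside it. The control spread of 25.0% (SD over mean) was wider than the 6.76% that counting error gives at the smallest read number, 219.

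The ratio of the 2 genes was also taken within libraries. Runx2 was 3.32, 4.32 and 4.94 times the level of Runx1 in siNC and 2.50, 2.34 and 2.85 times in siYBX1. The groups did not overlap, with p = 0.1 in a two-sided exact permutation test, the lowest value that 3 against 3 libraries can reach. Such a ratio is free of any scaling of whole libraries. The difference in the log2 ratio was -0.70, and between -0.85 and -0.57 when each library was left out in turn. It was taken on FPKM without the added 1, so it is not on the scale of the log2 fold changes above. With 0.1 FPKM added in place of 1, Runx2 was at -0.48 and Runx1 at 0.18 (adjusted p = 0.00442 and 0.460, limma). RUNX proteins bind DNA with a common partner, CBFB, whose mRNA was at 15.9 ± 0.87 FPKM in siNC and 14.7 ± 1.07 FPKM in siYBX1 (SD, n = 3 each, adjusted p = 0.250, limma), and the third family member, Runx3, was at 0.275 FPKM or less in every library. The RefSeq gene model of Supt3 overlaps that of Runx2, and strand use in the counting is not given in the sources used here. Supt3 was at 9.12 ± 0.24 FPKM in siNC and at 8.31 ± 0.25 FPKM after knockdown (log2 fold change -0.12, adjusted p = 0.147, limma).

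The start regions of the RUNX genes are shown because both carry the letters ACCACA, the core of the RUNX motif, as a closely spaced pair just after the start. RefSeq windows (GRCm38.p6, 250 bases before to 50 after a start) were on hand for 7 of the 8 genes, all but Sox9, with 11 windows in all. The processing notes name GRCm39, so these coordinates are not those of the authors' build. ACCACA or its reverse TGTGGT was found in 4 of the 11 windows, against 16.8% of all 32851 windows. A match describes letters and is not a binding site. In the 3 sequences capitals mark ACCACA. They run 5′ to 3′.
Runx2 before its start, chr17:44814628-44814877, minus strand: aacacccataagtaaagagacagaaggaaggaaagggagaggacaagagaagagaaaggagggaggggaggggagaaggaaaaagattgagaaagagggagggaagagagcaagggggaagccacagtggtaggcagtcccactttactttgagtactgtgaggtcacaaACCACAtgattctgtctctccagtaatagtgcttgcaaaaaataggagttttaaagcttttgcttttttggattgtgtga
Runx2 after its start, chr17:44814581-44814610, minus strand: caaacaACCACAgaACCACAagtgcggtgc
Runx1 after its upstream start, chr16:92826025-92826052, minus strand: taaacaACCACAgaACCACAagttgggt
With the first transcribed base counted as 1, the pair stands at 24 and 32 in Runx2 and at 29 and 37 in Runx1, and Runx2 has a further ACCACA at -80. No value here shows which start either gene used, and the same pair stands in the gene that fell and in the gene that did not pass.

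The list of partners and regulators of RUNX proteins had 16 genes, of which 13 were tested. Of these 1 fell and none rose, where 11.1% of all tested genes fell and 9.54% rose. Their median log2 fold change was -0.052, against -0.011 for all tested genes. The gene that fell was Tle2, a Groucho-family corepressor, at 9.96, 9.52 and 9.92 FPKM in siNC and 5.82, 6.50 and 6.27 FPKM in siYBX1. Its log2 fold change of -0.59 (adjusted p = 0.000253, limma) was larger in size than that of Runx2. Its relatives Tle1, Tle3 and Tle4 did not pass (log2 fold changes -0.13, 0.09 and -0.07). Smurf1, also on the list, did not pass (-0.17, adjusted p = 0.0521, limma). It passed as lower with TPM (-0.23, adjusted p = 0.0325) and with voom (-0.19, adjusted p = 0.0391).

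Sox9, which directs chondrocyte fate, was at 5.97, 4.39 and 4.50 FPKM in siNC and 3.43, 3.97 and 3.86 FPKM in siYBX1. The groups did not overlap, but siNC replicate 1 lay well above the other controls, which were close to the knockdown libraries. The log2 fold change was -0.32 (SE 0.10, interval -0.53 to -0.10, adjusted p = 0.0449, limma). Without siNC replicate 1 it was -0.20 with an adjusted p of 0.0939, and the call was also lost without siYBX1 replicate 1 (0.140), 2 (0.0752) or 3 (0.0842). The ratio of Sox9 to Runx2 was 1.14 ± 0.16 in siNC and 1.22 ± 0.11 in siYBX1, with overlapping groups (exact two-sided permutation p = 0.4, n = 3 each). The low adipocyte markers of siNC replicate 1 and its high Sox9 were seen in the same library, and the part of the one in the other was not tested. Of the 3 falls, that of Sox9 was the one lost when single libraries were left out.

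Genes of cartilage were scarce in these cells. Of 25 chondrocyte genes on the list, 20 were listed and only 2 reached a mean of 1 FPKM, Trps1, a GATA-type repressor, and Col11a2, a cartilage collagen chain. Neither passed (log2 fold changes -0.16 and -0.08, adjusted p = 0.149 and 0.481, limma), but Trps1 passed as lower with voom on recovered reads (-0.22, adjusted p = 0.0430). The partner factors of SOX9 in chondrocytes, Sox5 and Sox6, were at 0.014 and 0.079 FPKM or less in every library. Col2a1, the collagen of cartilage, was at 0.845, 0.671 and 0.814 FPKM in siNC and 0.181, 0.499 and 0.499 FPKM in siYBX1. These Col2a1 groups do not overlap, but the gene was below the level for testing, and without that filter its adjusted p was 0.0883 (limma). With voom on recovered reads, where 9 of the listed genes were tested, Col2a1 passed as lower (-1.09, adjusted p = 0.0139). Of the 20 listed chondrocyte genes, 12 were under 0.1 FPKM in every library, while Col2a1 and Col11a2 were detected at low levels.

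**Figure D2:**
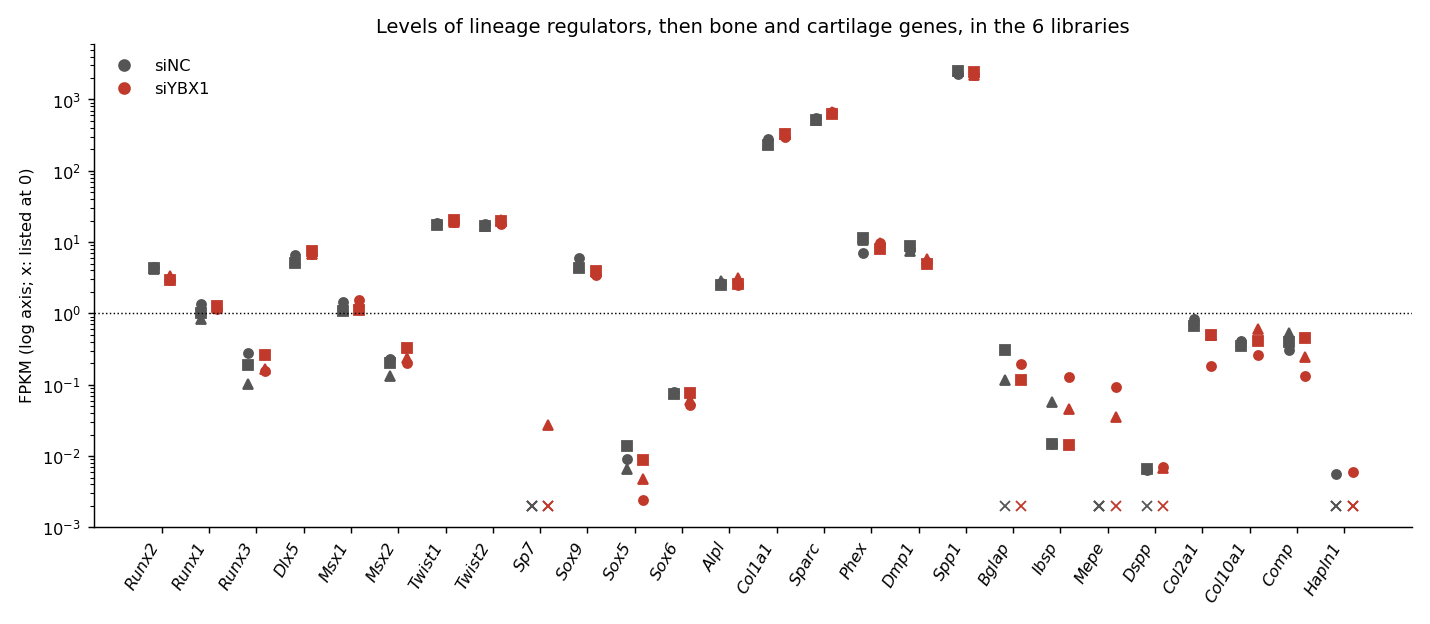
FPKM (log axis) of regulators and of bone and cartilage genes in the 3 siNC and 3 siYBX1 libraries, 1 symbol per library, with a dotted line at 1 FPKM and a cross where a gene is listed at 0. Runx2, Twist1, Sox9, Col1a1, Sparc and Spp1 lie above 1 FPKM, while Sp7, Bglap, Ibsp, Mepe, Dspp, Sox5, Sox6 and Hapln1 lie under it in every library.

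Msx1, a homeobox factor of craniofacial and limb precursors, was at 1.46, 1.07 and 1.11 FPKM in siNC and 1.54, 1.13 and 1.43 FPKM in siYBX1. The groups overlapped throughout. With 71 to 98 reads per library, counting error alone is 11.9% at the smallest number, and the interval of its log2 fold change was -0.11 to 0.30 (adjusted p = 0.510, limma). The antisense gene Msx1os overlaps Msx1 in RefSeq and was not analysed here.

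Twist1 was at 18.4, 17.3 and 18.0 FPKM in siNC and 18.9, 20.5 and 19.4 FPKM in siYBX1. Every knockdown library was above every control. The difference was small, with a log2 fold change of 0.12 (interval 0.00 to 0.24), and did not pass (adjusted p = 0.125, limma). Its close relative Twist2 was at 17.3 ± 0.70 FPKM in siNC and 19.2 ± 1.34 FPKM in siYBX1 (SD, n = 3 each, adjusted p = 0.131, limma). The ratio of Twist1 to Twist2 was near 1 in every library, from 0.952 to 1.07, and the groups overlapped. TWIST proteins dimerize with the E proteins of Tcf3, Tcf4 and Tcf12, which ID proteins sequester. On the list of TWIST partners and targets 10 genes were tested, with a median log2 fold change of -0.070. Of the 10, 2 fell and none rose, where 11.1% of all tested genes fell and 9.54% rose. The 2 that fell were Id1, at 73.5 ± 4.44 against 56.9 ± 7.25 FPKM (log2 fold change -0.37, adjusted p = 0.0116, limma), and Id2, at 23.9 ± 1.73 against 20.1 ± 0.17 FPKM (-0.24, adjusted p = 0.0195). With no filter on low values neither passed (adjusted p = 0.0707 and 0.0564, limma). Tcf3 did not pass (-0.17, adjusted p = 0.0645, limma), but passed as lower with TPM (-0.23, adjusted p = 0.0374). The Id2 call was lost without siNC replicate 2, siYBX1 replicate 1 or siYBX1 replicate 2 (adjusted p = 0.0576 to 0.0646), and Id3 did not pass (-0.13).

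Among other osteoblast transcription factors, 9 of 10 were listed and 4 were tested. Sp7, the factor that acts after RUNX2 in osteoblasts, was listed at 0 in 5 of 6 libraries and at 0.027 FPKM in the other. Dlx5, a homeobox activator of Runx2, was at 6.61, 5.08 and 5.53 FPKM in siNC and 6.82, 7.57 and 6.71 FPKM in siYBX1. It lay on the opposite side from Runx2 without passing (log2 fold change 0.26, adjusted p = 0.0558, limma). Without siNC replicate 1 it passed as higher (0.35, adjusted p = 0.00792), as it did with quantile normalization (0.29, adjusted p = 0.0375). With all 6 libraries, 1 of the 4 tested genes fell and none rose (median 0.040), where 11.1% of all tested genes fell and 9.54% rose. The gene that fell was Bhlhe40, a helix-loop-helix repressor, from 38.6 ± 11.7 to 26.0 ± 3.59 FPKM (-0.52, adjusted p = 0.0453, limma). Its siNC replicate 1 was at 52.2 FPKM, above both other controls, and without that library the change was -0.29 (adjusted p = 0.0418). The Bhlhe40 call was lost when any 1 of the siYBX1 libraries was left out (adjusted p = 0.0589 to 0.149). It was also lost with no filter on low values (adjusted p = 0.185) and with quantile normalization (0.0568, limma). A correction for length (0.0584) and a block for replicate number (0.0588) ended it too.

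**Figure D3:**
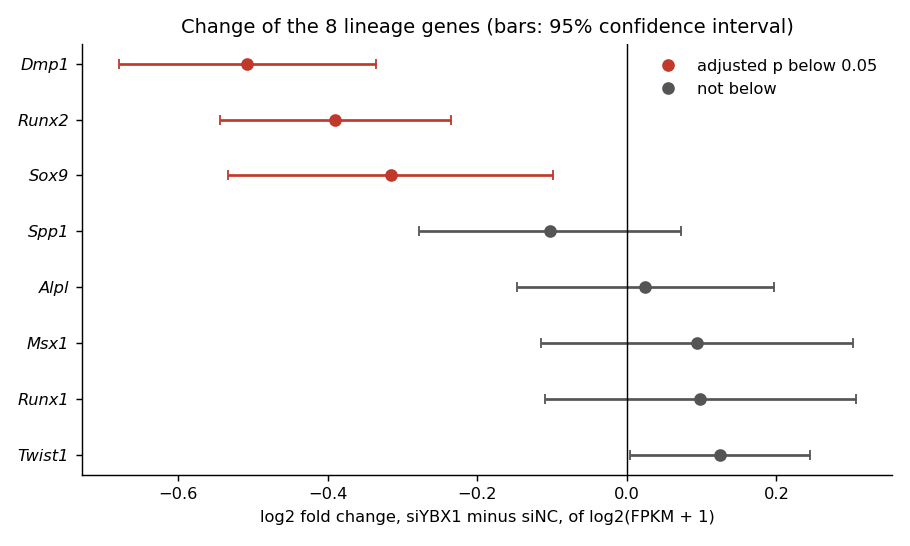
Log2 fold change of log2(FPKM + 1), siYBX1 minus siNC (horizontal axis), of the 8 genes, with 95% confidence intervals from limma over 3 libraries per group. Dmp1 at -0.51, Runx2 at -0.39 and Sox9 at -0.32 passed the threshold of 0.05, and the other 5 lie between -0.10 and 0.12.

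Dmp1 and Spp1 belong to 1 family of acidic phosphoproteins of bone and dentin, whose genes lie side by side on chromosome 5. DMP1 is made mainly by osteocytes and osteopontin by many cells, macrophages among them. Dmp1 was at 7.71, 8.86 and 7.45 FPKM in siNC and at 5.18, 4.97 and 5.84 FPKM in siYBX1. The groups were well apart. The log2 fold change of -0.51 (SE 0.08, interval -0.68 to -0.34, adjusted p = 0.0019, limma) was the largest among the 8 genes, and Dmp1 was covered by 512 to 938 reads per library. Spp1 was at 2300.3, 2469, 2505, 2197, 2401 and 2179 FPKM in siNC replicates 1 to 3 and siYBX1 replicates 1 to 3. These groups overlapped, and the log2 fold change of -0.10 (interval -0.28 to 0.07, adjusted p = 0.380, limma) did not pass. Counting error was 0.298% for Spp1 at its smallest read number, so depth does not set that interval.

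The other genes of the family, which stand between or beside Dmp1 and Spp1, were almost silent. Ibsp was at 0.128 FPKM or less in every library, Mepe at 0.093 or less and Dspp at 0.007 or less. Of the genes flanking the family, Sparcl1 (log2 fold change -0.07, adjusted p = 0.677, limma), Nudt9 (0.09, adjusted p = 0.314) and Pkd2 (-0.13, adjusted p = 0.190) did not pass, and Hsd17b11, a steroid dehydrogenase gene, rose (0.21, adjusted p = 0.0261). Spp1 was 298, 279 and 336 times the level of Dmp1 in siNC and 424, 483 and 373 times in siYBX1, without overlap (exact two-sided permutation p = 0.1, the smallest possible). Dmp1 was thus the one gene that fell among these neighbours.

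Windows before the starts of Dmp1 and Spp1 are shown with those of Msx1, Twist1 and Runx1 because they hold CCAAT or its reverse ATTGG, the core of the Y-box. Capitals mark these letters, and in the windows of 250 bases also the RUNX core ACCACA. The build and source are those given for the RUNX genes.
Dmp1 before its upstream start, chr5:104197325-104197574, plus strand: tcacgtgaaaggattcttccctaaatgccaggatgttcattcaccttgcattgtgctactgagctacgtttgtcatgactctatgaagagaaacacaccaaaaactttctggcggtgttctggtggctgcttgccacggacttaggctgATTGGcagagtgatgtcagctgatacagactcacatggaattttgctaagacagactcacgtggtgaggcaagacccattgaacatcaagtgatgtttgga
Dmp1 before its downstream start, chr5:104202367-104202616, plus strand: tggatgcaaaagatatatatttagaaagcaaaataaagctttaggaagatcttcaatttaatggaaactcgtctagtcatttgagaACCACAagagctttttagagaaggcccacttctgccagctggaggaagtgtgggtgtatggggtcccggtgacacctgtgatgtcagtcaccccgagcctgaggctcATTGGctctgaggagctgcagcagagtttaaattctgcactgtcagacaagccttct
Spp1 before its upstream start, chr5:104434861-104435110, plus strand: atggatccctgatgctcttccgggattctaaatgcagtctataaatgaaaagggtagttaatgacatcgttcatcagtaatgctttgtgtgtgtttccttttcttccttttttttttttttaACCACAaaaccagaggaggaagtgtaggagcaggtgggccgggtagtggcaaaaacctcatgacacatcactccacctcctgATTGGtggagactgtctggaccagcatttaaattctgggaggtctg
Msx1, chr5:37824608-37824667, minus strand: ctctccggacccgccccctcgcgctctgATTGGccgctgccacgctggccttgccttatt
Twist1, chr12:33957554-33957613, plus strand: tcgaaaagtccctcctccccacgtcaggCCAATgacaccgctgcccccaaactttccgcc
Runx1 at its upstream start, chr16:92826108-92826167, minus strand: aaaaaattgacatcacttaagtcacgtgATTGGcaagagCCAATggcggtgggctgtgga
CCAAT or ATTGG was found in 7 of the 11 windows of these genes, against 37.4% of all windows. The longer CTGATTGG or its reverse CCAATCAG, which contains ATTGG, was found in 3, namely at -104 of Dmp1, -49 of Spp1 and -57 of Msx1, against 4.10% of all windows. Of these genes Dmp1 fell and the other 2 did not pass, and the Runx2 window holds neither set of letters. Both Dmp1 starts carry ATTGG, at -101 and -57. The letters thus stood before a gene that fell and before genes that did not pass. Sox9, which also fell, had no window to search, and nothing follows from the letters about binding.

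Macrophages are a well-known source of osteopontin. Their markers Ptprc, Adgre1, Lyz2, Csf1r and Itgam were at 0.106 FPKM or less in every library, while Spp1 was at 2179 FPKM or more. Of 7 listed markers 2, Cd68 and Cd14, were tested and neither passed (median -0.316). Cd68 was at 24.3, 10.8 and 12.8 FPKM in siNC and 6.80, 9.47 and 11.1 FPKM in siYBX1 (log2 fold change -0.69, adjusted p = 0.0681, limma). It passed as lower without siNC replicate 2 (-0.91, adjusted p = 0.0216), with TPM (adjusted p = 0.0467) and with voom (adjusted p = 0.0457), and without siNC replicate 1 it was at -0.35 (adjusted p = 0.110). The summed level of the 7 listed markers was 15.9 to 29.5 FPKM in siNC and 11.4 to 17.2 FPKM in siYBX1, mostly from Cd68 and Cd14.

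Osteopontin binds CD44 and several integrins. Of 6 of these receptors tested, 3 rose and 1 fell, where 9.54% of all tested genes rose and 11.1% fell. These counts were the same without each library in turn. The median log2 fold change was 0.16, against -0.011 for all tested genes. The list was written with earlier results of these data known, so its counts are a description only. Itga5, an integrin subunit that binds fibronectin and osteopontin, was at 37.0, 31.2 and 32.8 FPKM in siNC and 58.5, 61.2 and 62.3 FPKM in siYBX1. This was a 1.80-fold rise with groups far apart (log2 fold change 0.83, SE 0.07, adjusted p = 4.05e-05, limma). Itga8 rose from 5.90 ± 0.54 to 9.36 ± 0.91 FPKM (adjusted p = 0.00109), and Itgb1, the partner chain of both, from 218 ± 9.33 to 263 ± 2.83 FPKM (adjusted p = 0.00672, limma). Cd44 fell from 21.8 ± 0.72 to 18.4 ± 0.42 FPKM (adjusted p = 0.0117, limma). Itgav and Itgb5, the chains of further osteopontin-binding integrins, did not pass (log2 fold changes 0.05 and 0.05).

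Alpl, the tissue-nonspecific alkaline phosphatase that removes the mineral inhibitor pyrophosphate, was at 2.68, 2.52 and 2.83 FPKM in siNC and 2.53, 2.60 and 3.11 FPKM in siYBX1. The groups overlapped almost fully (log2 fold change 0.02, interval -0.15 to 0.20, adjusted p = 0.850, limma). Its sign was negative with TPM (-0.017), without siNC replicate 2 (-0.0061) and without siYBX1 replicate 3 (-0.045). Dmp1 was 2.88, 3.52 and 2.64 times the level of Alpl in siNC and 2.05, 1.92 and 1.88 times in siYBX1, without overlap (exact two-sided permutation p = 0.1, the smallest possible). This ratio restates the lower Dmp1 beside an Alpl that did not pass. Of 6 tested genes of phosphate and pyrophosphate handling, 1 fell and none rose (median -0.031), where 11.1% of all tested genes fell and 9.54% rose. Slc20a2 did not pass (-0.18, adjusted p = 0.0685, limma). It passed as lower with TPM (-0.24, adjusted p = 0.0404) and without siNC replicate 3 (-0.24, adjusted p = 0.0411). The gene that fell was Ank, the pyrophosphate exporter, at 114 ± 9.23 against 96.0 ± 4.85 FPKM (log2 fold change -0.24, adjusted p = 0.0277, limma). Leaving out siNC replicate 3, siYBX1 replicate 1 or siYBX1 replicate 3 ended this call (adjusted p = 0.0722 to 0.0922). Phospho1, a phosphatase of mineralizing vesicles that is also active in brown fat, was at 64.2 ± 14.0 and 63.8 ± 5.20 FPKM (adjusted p = 0.965).

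**Figure D4:**
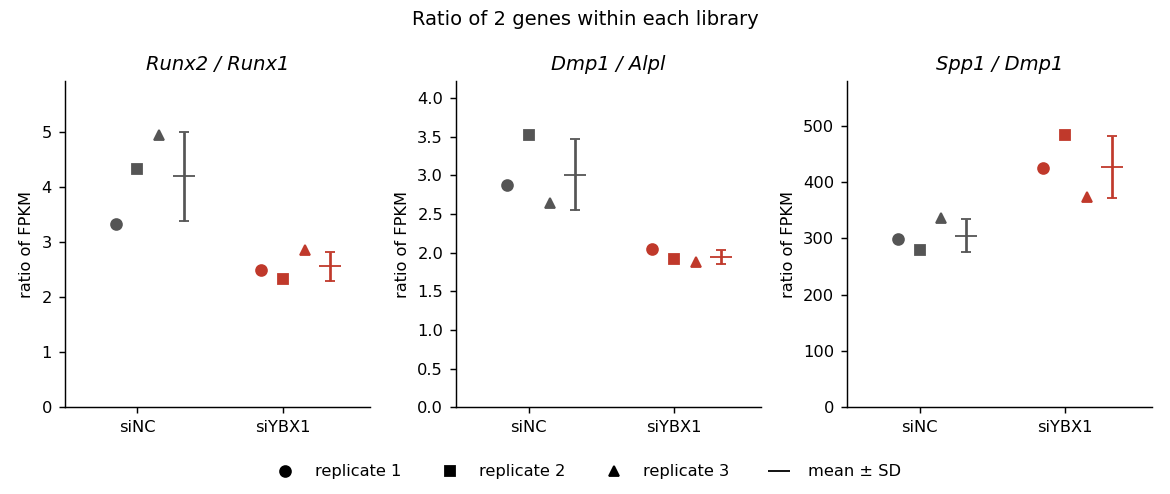
Ratio of FPKM of 2 genes within the same library (vertical axes from 0) for Runx2 over Runx1, Dmp1 over Alpl and Spp1 over Dmp1, with the mean and SD of 3 libraries per group. The groups do not overlap in these 3 ratios. Of 5 ratios computed, the other two, Sox9 over Runx2 and Twist1 over Twist2, overlapped and are not drawn.

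Bone matrix genes moved in both directions. Of 11 tested genes for osteoblast matrix and secreted proteins, 4 rose and 2 fell (median -0.074), where 9.54% of all tested genes rose and 11.1% fell. With quantile normalization 2 rose and 3 fell. Bgn did not pass (-0.22, adjusted p = 0.0556, limma). It passed as lower with TPM, quantile normalization, voom and the length correction (adjusted p = 0.0151 to 0.0280, limma). Col1a1, the main collagen chain of bone, rose from 246 ± 26.2 to 316 ± 18.8 FPKM (log2 fold change 0.36, adjusted p = 0.0102, limma), and Sparc, osteonectin, from 522 ± 19.5 to 653 ± 19.5 FPKM (0.32, adjusted p = 0.00515). With quantile normalization Col1a1 no longer passed (0.23, adjusted p = 0.141). Ogn and Pdpn were the other rises, and the call of Ogn was lost without any of the siYBX1 libraries (adjusted p = 0.0578 to 0.0816). The median of the list was 0.033 without siNC replicate 2. Mgp, the matrix protein that inhibits calcification, fell from 848 ± 46.3 to 590 ± 36.3 FPKM (-0.52, adjusted p = 0.001), and Omd, osteomodulin, from 6.79 ± 0.22 to 5.17 ± 0.55 FPKM (-0.34, adjusted p = 0.00939). The late osteoblast genes Bglap and Bglap2, which encode osteocalcin, were at 0.494 FPKM or less in every library, and such near-identical copies can share reads. Sp7, Bglap and Ibsp thus stayed under 1 FPKM in every library, while 11 of the 17 listed matrix genes averaged 1 FPKM or more. Phex, a peptidase gene of osteocytes, averaged 9.78 ± 2.31 FPKM in the controls and 9.04 ± 0.95 FPKM after knockdown (adjusted p = 0.706, limma), and passed as lower without siNC replicate 1 (-0.27, adjusted p = 0.0360).

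The profiles of the 3 genes that fell were compared with those of 7330 genes that averaged 5 FPKM or more, by the root mean square difference of centred log2(FPKM + 1) over the 6 libraries. The closest to Dmp1 were Cenpf, a kinetochore protein (0.0274), and Scara3, a scavenger receptor family member (0.0308). The closest to Runx2 were Sgpl1, a sphingolipid lyase (0.0271), and Myh10, a nonmuscle myosin heavy chain (0.0290). The closest to Sox9 were Plbd2, a lysosomal protein (0.0286), and Alkbh5, an RNA demethylase (0.0353). For scale, the 3 profiles themselves varied about their means by 0.27, 0.20 and 0.20. With 6 libraries such likeness is a description only.

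**Figure D5:**
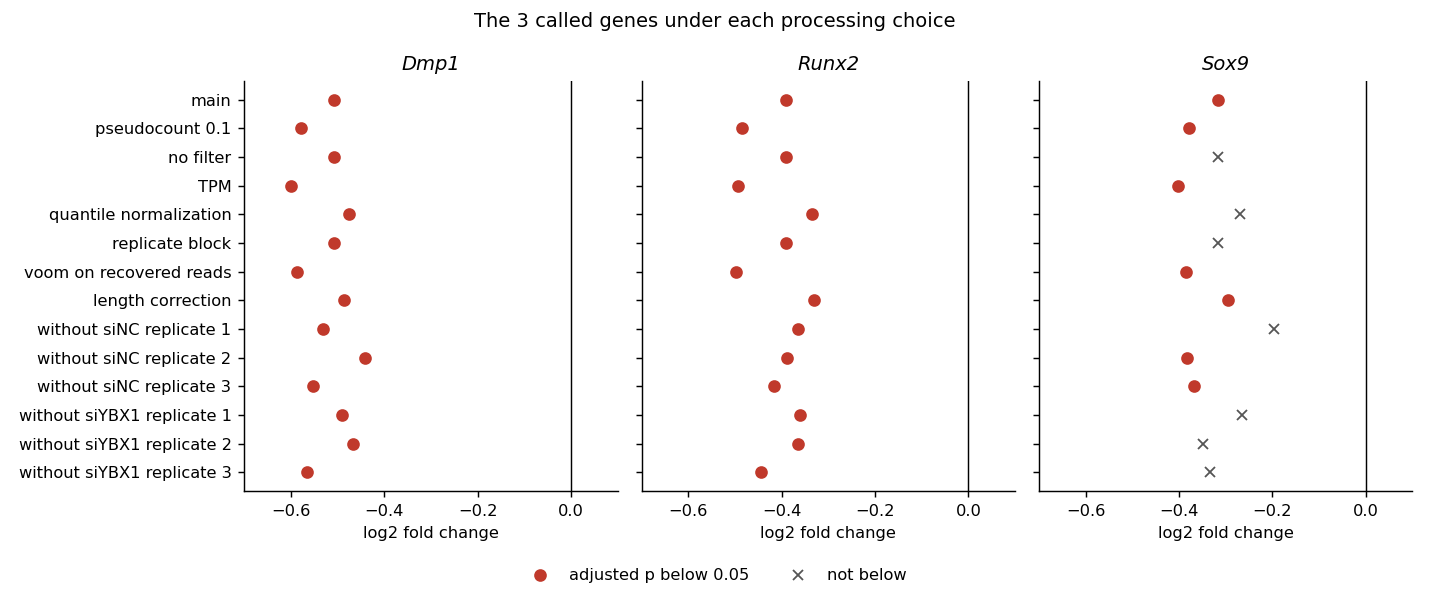
Log2 fold change of Dmp1, Runx2 and Sox9 (horizontal axes) under the main test and 13 alternatives (vertical axis), with circles where the adjusted p was below 0.05. Dmp1 and Runx2 passed under all 13 alternatives, and Sox9 passed under 6.

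Under the 13 alternatives Dmp1 stayed between -0.60 and -0.44 and Runx2 between -0.50 and -0.33, both below 0.05 in each, while Sox9 ranged from -0.40 to -0.20. Gene length bears on this comparison, since long genes leaned lower after knockdown. Their median log2 fold change was -0.067 in the longest 20% of tested genes, which hold Runx1 and Runx2, and 0.079 in the shortest, which hold Spp1 and Twist1. After a correction for length Dmp1 was at -0.49, Runx2 at -0.33 and Sox9 at -0.29, with adjusted p-values of 0.00256, 0.00459 and 0.0474 (limma). None of the other 5 genes passed under any alternative.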

How the data were processed

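RNA of 6 samples was sequenced, and the authors deposited 1 table of FPKM values with a row per gene symbol. Per the submitters' processing notes, GRCm39 and the tools HISAT2, HTSeq and fastp were used, without versions or roles. Columns named con and si were matched to siNC and siYBX1 by name and number, and 0 columns were unused.

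Genes averaging 1 FPKM or more were tested with limma 3.58.1 (R 4.3.3, intensity trend) on log2(FPKM + 1), two-sided and without covariates, after the code had been tested on simulated data. Fold changes on this scale understate changes of low genes. Library totals came from 116 to 127 genes with GENCODE vM21 exon lengths. Each gene then got the smallest length that makes its 6 values whole reads (tolerance 0.02 reads, found for all 16423 genes), which equalled the GENCODE length for 162. Read numbers are thus inferred, and served for depth, length and voom. Means, ratios and figures used Python 3.11.15. Intervals from reads cover counting error only.

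Named were all 8 genes, Ybx1, up to 2 called rises and 2 called falls per list (or its 2 most abundant genes), and the 2 closest profiles of each called gene. Others were chosen after their values were seen. The members and lists were chosen with earlier results of these data known.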

Additional observations from a re-analysis of the deposited data

How the results depend on the processing

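The number of genes called, 2132, was 1241 with no filter on low values, where 16423 genes were tested, and 1346 with the replicate block. It ranged from 1199 (without siYBX1 replicate 1) to 2026 over the libraries left out in turn. The number among the 8 genes was 3, and 2 or 3 under every alternative. Same-numbered libraries did not deviate together (correlations -0.31, -0.13 and -0.25 over genes), and no library correlated best with its own number, so the block, under which Sox9 gave an adjusted p of 0.0765, is an alternative only. With TPM 29.6% of calls were higher, against 46.3%. Sox9 was also lost with no filter (adjusted p = 0.153) and with quantile normalization (0.0667, limma). Signs turned for Alpl with TPM (-0.017) and, over libraries left out, for Alpl (-0.045 to 0.066), Adipoq (-0.25 to 0.052) and Cd14 (-0.046 to 0.19), none called where the sign had turned. Of 455 values of named genes under alternatives, 407 kept their direction and side of the threshold, 36 lost a call, 6 gained one and 6 changed sign. The causes were not tested. Among the 8 genes, counting error at the smallest read number was largest for Msx1 (11.9%) and Runx1 (6.76%). Their spreads among the controls were wider, at 17.4% and 25.0%.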

Other observations

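Tendon, muscle and osteoclast genes left few transcripts. Of 5 tendon genes 3 were tested and Tnmd, a tendon membrane protein, rose 1.53-fold from 0.984 ± 0.10 FPKM in siNC (SD, n = 3, log2 fold change 0.33, adjusted p = 0.0284, limma), a call lost without 4 of the 6 libraries in turn (adjusted p = 0.0590 to 0.104). It reached the level for testing only through siYBX1, where it was higher. The tendon factors Scx and Mkx were at 0.970 to 1.47 and 1.31 to 1.83 FPKM and did not pass. Of the 5 muscle genes listed, 2 were tested. Acta1 rose from 0.447 ± 0.23 to 2.24 ± 0.78 FPKM (log2 fold change 1.14, adjusted p = 0.00144, limma). It likewise reached the level for testing only through siYBX1. Des was at 4.41 ± 0.64 FPKM in siNC and 3.94 ± 0.66 FPKM in siYBX1 and did not pass (-0.13, adjusted p = 0.416, limma). The myogenic factor Myod1 was at 0.016 FPKM or less. All 6 osteoclast genes were below a mean of 1 FPKM, the highest being Ctsk, at 0.341 FPKM or less, and Acp5, at 0.162 FPKM or less. Without the filter Mmp9 passed as lower (-0.13, adjusted p = 0.0398, limma), at 0.118 ± 0.04 against 0.023 ± 0.01 FPKM. It rested on 1 to 19 reads per library.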
